A study of Homo sapiens with 26 samples.

Results

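The 10 genes described here belong to the pathways of hyaluronan and heparan sulfate and were chosen by symbol out of 26485 genes in the deposited tables. They are the hyaluronan synthases HAS2 and HAS3, the hyaluronidase HYAL2, and 7 sulfotransferases of heparan sulfate, NDST1, HS2ST1, HS6ST1, HS6ST2, HS3ST2, HS3ST4 and HS3ST5. HAS2 and HS3ST4 were put among them because they fell in these data, so their values are given without a test wherever they fell, and likewise where the hairpins were compared for them. All 10 passed the filter on low counts, which left 14905 genes tested in cell culture and 15960 in the xenografts.

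The libraries came from KELLY, a human neuroblastoma cell line in which MYCN is amplified, whose cells carried the doxycycline-inducible lentiviral vector FH1UTG. The vector was empty (EV) or encoded a hairpin against RUNX1T1, a transcriptional corepressor, named sh4 or shAMB. Each of the 3 lines received DMSO or doxycycline for 72 h, with 3 libraries per group and 18 in all. Another 8 libraries came from tumors of KELLY cells grown subcutaneously, per the methods of the study, in young female NOD SCID gamma mice, which lack T, B and NK cells. Of these tumors, 4 were labelled control, with genotype WT and control food, and 4 were labelled RUNX1T1 KO, with doxycycline food, although the agent was an inducible hairpin. The methods name an Ambion-based hairpin for the tumor cells, and the labels do not tie that name to sh4 or shAMB. Nothing in the labels says that libraries of a group came from separate cultures, and p-values therefore measure the spread between these samples, which may be technical.

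A culture library held 35115915 to 54736733 expected counts, and a xenograft library 47346063 to 62378060. All 8 markers of adrenergic neuroblastoma, among them HAND2 and DBH, were at 1 CPM (counts relative to the scaled library total) or more in every group. RUNX1T1 itself did not pass the test of doxycycline against DMSO in any line: its log2 fold change with doxycycline was -0.16 in EV (adjusted p = 0.672, edgeR), -0.11 in sh4 (adjusted p = 0.117) and 0.06 in shAMB (adjusted p = 0.378), and it was -0.23 between the xenograft groups (adjusted p = 0.229). Set against the EV effect, the shAMB effect on RUNX1T1 was higher by 0.21 (adjusted p = 0.0353, edgeR). Groups are therefore called by their labels and not by a state of RUNX1T1. These are RNA values and do not measure the protein. The paper reports lower RUNX1T1 protein in KELLY cells after doxycycline with each of its hairpin constructs, and loss of RUNX1T1 staining in KELLY tumors. Which columns held DMSO and which doxycycline was read from the headings Neg and Pos, and every direction given for cell culture depends on that reading.

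Hyaluronan is a long unsulfated sugar chain that is made at the plasma membrane by the HAS enzymes and released into the matrix, and it is cut by hyaluronidases and bound by receptors such as CD44. Heparan sulfate is built in the Golgi on core proteins such as glypicans and syndecans and is then modified stepwise. N-deacetylase/N-sulfotransferases such as NDST1 act first, the 2-O-sulfotransferase HS2ST1 and the 6-O-sulfotransferases follow, and the 3-O-sulfotransferases add the rarest sulfate, which shapes binding sites for particular ligands. The sulfation pattern sets which growth factors and morphogens a cell surface can hold, and neural tissues express several 3-O-sulfotransferases.

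HAS3 and HS6ST2 rose with doxycycline in both hairpin lines, and HS3ST4 was chosen for its falls there. A 30-base stretch of each of these 3 promoters is printed to show the E-box nearest upstream of its RefSeq start (GRCh38.p14), since E-boxes are the sites that MYCN and neural bHLH factors bind. Capitals mark the match to CANNTG, a pattern that reads alike on both strands in its fixed letters, and each stretch is given 5′ to 3′ on the strand of its gene.
HAS3: gtgggaaagcggCACGTGggtgtggccggc
HS6ST2: gattacaggaacCAAATGcatgtctggcct
HS3ST4: tggggaacacccCAAGTGcgtgcgtgctgg
The HAS3 stretch lies at chr16:69107462-69107491 (plus strand), in an intron of the longer annotated HAS3 transcripts, with its E-box 66 bases upstream of the RefSeq start. The HS6ST2 stretch lies at chrX:132961413-132961442 (minus strand) with the E-box 60 bases upstream, and the HS3ST4 stretch at chr16:25691789-25691818 (plus strand) with the E-box 158 bases upstream, and no annotated gene covers either. Of 35116 RefSeq promoters of 300 bases, 68.7% held CANNTG and 7.26% held CACGTG, its form with C and G in the middle. Among the 9 members with a promoter in the table used, CACGTG was found in HAS3 alone. These matches describe the letters in the windows and were not set against any binding data.

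The genes lie on several chromosomes of GRCh38 (GENCODE annotation). HAS2 spans chr8:121612116-121641440 on the minus strand, and 5.92% of its exonic bases overlap HAS2-AS1 on the other strand. HAS3 spans chr16:69105653-69118719 on the plus strand, where 7.02% of the exonic bases overlap CHTF8 and DERPC on the other strand. HS3ST2 (chr16:22814162-22916338) and HS3ST4 (chr16:25691959-26137685) lie on the same chromosome, also on the plus strand, and overlap no other exon. HS6ST2 (chrX:132626015-132961395), HS6ST1 (chr2:128236716-128318868) and HS3ST5 (chr6:114055596-114343023) are all on the minus strand and free of overlap. HYAL2 (chr3:50317790-50322782, minus strand) shares 11.5% of its exonic bases with TUSC2 on the same strand, and HS2ST1 (chr1:86914635-87109982, plus strand) shares 8.502% with a second annotated gene on its strand, so that reads in these stretches could be split between genes and the levels of both are uncertain to that extent. NDST1 (chr5:150485818-150558211, plus strand) overlaps an antisense gene over 0.715% of its exonic bases. Whether counting used the strand is not given in the sources used here.

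Per kilobase of gene length, the scale on which different genes can be compared, HS2ST1 stood highest in 7 of 8 groups. In EV cells with DMSO its mean was 27.5 CPM per kb, followed by NDST1 at 11.6, HS6ST2 at 9.30, HYAL2 at 7.59, HS3ST2 at 5.71 and HS6ST1 at 3.36. HS3ST5 at 1.60, HAS3 at 0.896, HS3ST4 at 0.562 and HAS2 at 0.455 CPM per kb closed the order. The libraries of HS6ST2 overlapped with those of HYAL2, those of HYAL2 with HS3ST2 and those of HS3ST4 with HAS2, whereas HS2ST1 and NDST1 stood clear of what followed. In xenografts labelled KO the order differed at the top, where HS3ST2 led with 26.3 CPM per kb (20.2 to 30.7 over the 4 libraries) and HS2ST1 followed with 18.04 (16.1 to 18.8).

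**Figure D1:**
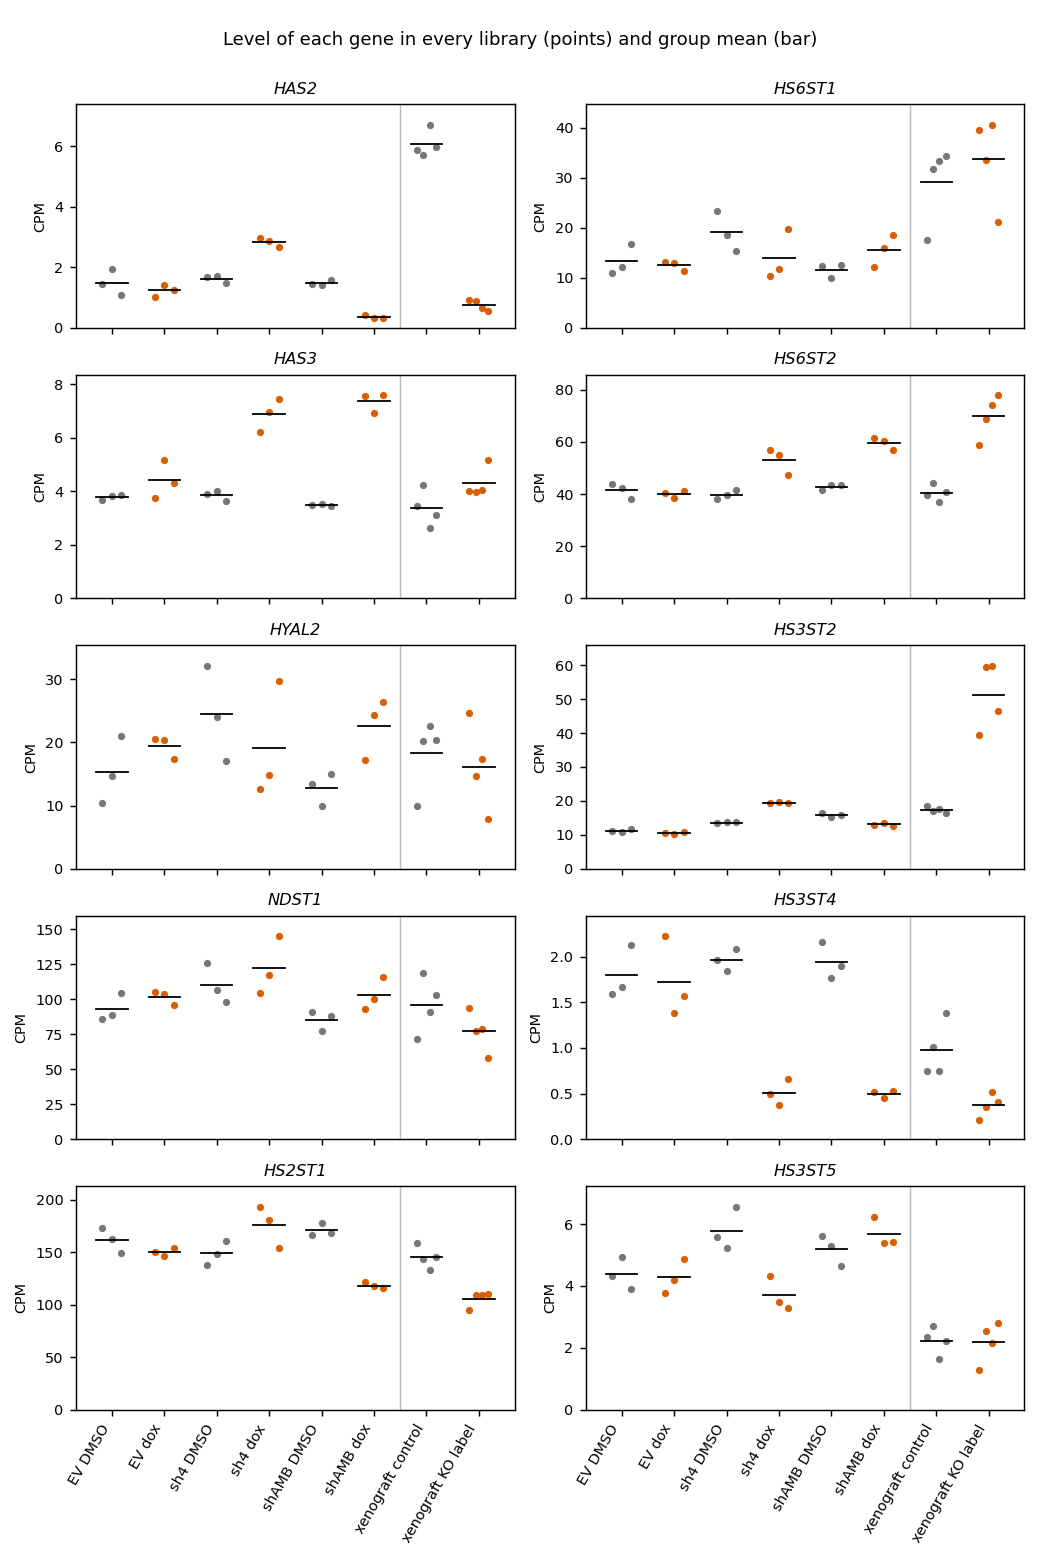
CPM of each of the 10 genes (vertical axes, from 0) in every library (points) of the 8 groups (horizontal axis), with the group mean as a bar; grey marks DMSO or control food, orange doxycycline, and the vertical line separates the cell culture table from the xenograft table, which were scaled apart. HAS2 lay between 0.323 and 0.425 CPM in shAMB with doxycycline and between 0.538 and 0.924 CPM in xenografts labelled KO, and HS3ST2 reached 59.9 CPM in the latter.

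Doxycycline without a hairpin left all 10 genes short of the threshold. In the EV line 0 of 10 were changed (edgeR quasi-likelihood F test, adjusted p under 0.05), and 0 of 10 had an unadjusted p under 0.05, where 0.0939% of all tested genes were changed. The fitted log2 fold changes ran from -0.28 for HAS2 to 0.34 for HYAL2. The interval for HAS2 was -0.67 to 0.11 and for HYAL2 -0.33 to 1.02, so that changes within these limits were not excluded here. No member separated its DMSO libraries from its doxycycline libraries in EV, against 14.1% of all tested genes that did.

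With a hairpin, more of them moved. In sh4, 6 of the 9 genes open to a test were changed, 5 higher and 1 lower, where 40.9% of all tested genes were changed (22.9% higher and 18% lower). In shAMB it was 5 of 8, 3 higher and 2 lower, against 66% of all tested genes (37.6% higher and 28.4% lower). In the xenografts it was 3 of 8, 2 higher and 1 lower, against 41.1% (21.2% higher and 19.9% lower). Libraries of the compared groups did not overlap for 5 of these 9 members in sh4, 6 of 8 in shAMB and 3 of 8 in the xenografts, next to 41.3%, 73.4% and 36.7% of all tested genes. In shAMB and the xenografts the shares among the members are thus near those among all genes, and in sh4 they are higher. The members are few and were chosen with earlier results known, so no result about them as a set is drawn. What follows is about the direction and size of single genes. The sh4 and shAMB effects were each also compared with the EV effect, and since both use the same EV libraries the outcomes are not independent. Beyond EV, 6 of 9 members were changed in sh4 (5 higher and 1 lower), where 32.6% of all tested genes were (17.8% higher and 14.7% lower). In shAMB 3 of 8 were (2 higher and 1 lower), where 45.5% of all tested genes were (23.7% higher and 21.7% lower).

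**Figure D2:**
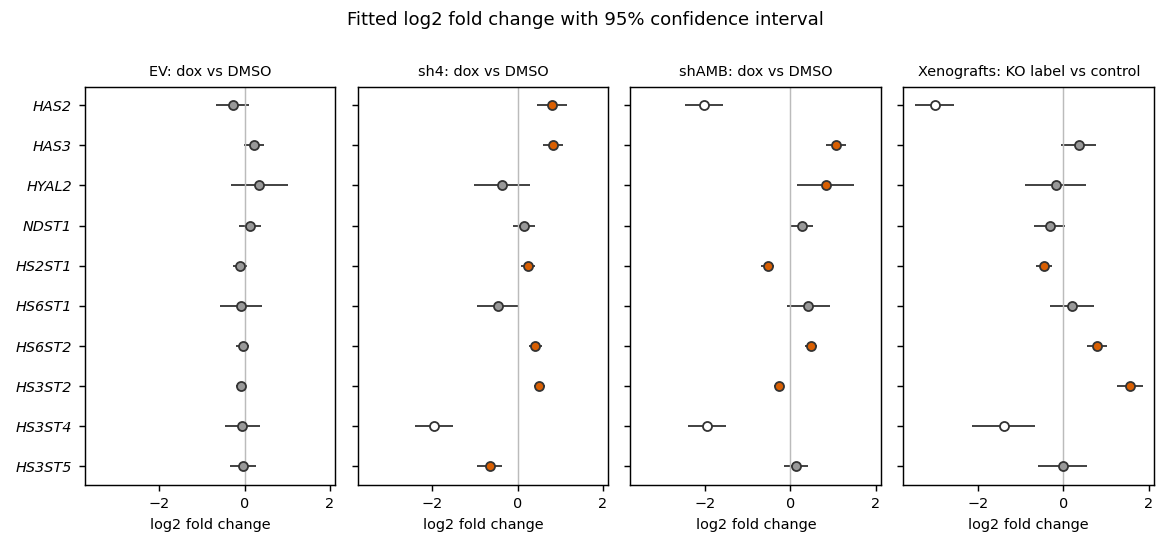
Fitted log2 fold change (horizontal axes) of each gene with its 95% confidence interval, for doxycycline against DMSO in the EV, sh4 and shAMB lines and for xenografts labelled KO against control. Orange points passed an adjusted p of 0.05 and grey ones did not; white points are HAS2 and HS3ST4 where they were chosen for their falls, with no test. HAS3 was at 0.83 in sh4 and 1.07 in shAMB, while HAS2 was at 0.80 in sh4 and -2.03 in shAMB.

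HAS2, the synthase of very long hyaluronan chains, went in opposite directions with the hairpins. In sh4 it was 1.67, 1.71 and 1.49 CPM with DMSO and 2.98, 2.88 and 2.68 CPM with doxycycline. All libraries with doxycycline lay above all with DMSO, and the rise (log2 0.80 ± 0.17 SE, n = 3) passed the test with an adjusted p = 0.0012 in edgeR. It also passed against the EV effect, with a difference of 1.08 ± 0.25 on the log2 scale (adjusted p = 0.00384).

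In shAMB, HAS2 was 1.45, 1.40 and 1.58 CPM with DMSO and 0.425, 0.332 and 0.323 CPM with doxycycline. The groups did not overlap, and the level was 4.09-fold lower (log2 -2.03, 95% interval -2.48 to -1.59), given as a description because this fall chose the gene. In the EV line the values were 1.46, 1.94 and 1.07 CPM with DMSO and 1.03, 1.41 and 1.26 CPM with doxycycline, which overlapped. The counts behind these values were low, down to 14 reads in a library.

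In the xenografts HAS2 was 5.89, 5.71, 6.72 and 5.97 CPM in the 4 control tumors and 0.924, 0.879, 0.638 and 0.538 CPM in the 4 labelled KO. It stood 8.13-fold lower in the latter (log2 -3.02, 95% interval -3.49 to -2.56), again without a test. Leaving out 1 tumor at a time gave log2 values of -3.15 to -2.90. Per kilobase, control tumors held 1.85 CPM of HAS2 and the DMSO groups in culture 0.451 to 0.496, values from separately scaled tables that were not tested against each other. In a tumor, fewer cells of a type and less RNA per cell cannot be told apart for this or any later result.

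HAS3, which makes shorter hyaluronan chains, rose in both hairpin lines. It was 3.90, 4.01 and 3.65 CPM with DMSO and 6.21, 6.97 and 7.46 CPM with doxycycline in sh4, and 3.499, 3.53 and 3.45 CPM against 7.57, 6.94 and 7.59 CPM in shAMB. In neither line did the groups overlap, and DMSO values were close together throughout. The rise was 1.78-fold in sh4 (log2 0.83 ± 0.11 SE, adjusted p = 1.3e-05, edgeR) and 2.11-fold in shAMB (log2 1.07 ± 0.11 SE, adjusted p = 4.1e-07). Both exceeded the EV effect, by 0.61 ± 0.15 in sh4 (adjusted p = 0.00656) and by 0.85 ± 0.15 in shAMB (adjusted p = 0.000323). The effects of sh4 and shAMB on HAS3 differed by -0.24 on the log2 scale (interval -0.56 to 0.08, adjusted p = 0.18, edgeR), a difference that did not pass.

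In the EV line HAS3 was 3.67, 3.804 and 3.86 CPM with DMSO and 3.73, 5.18 and 4.32 CPM with doxycycline. In the tumors it was 3.46, 4.25, 2.62 and 3.13 CPM in controls and 4.01, 3.98, 4.06 and 5.15 CPM in those labelled KO. The tumor groups overlapped through 1 control at 4.25 CPM, and the log2 fold change of 0.36 (interval -0.06 to 0.77) did not pass (adjusted p = 0.157, edgeR). HAS2 and HAS3 were thus both higher in sh4 with doxycycline, whereas in shAMB HAS3 was higher and HAS2 lower.

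HYAL2, a hyaluronidase anchored at the cell surface, varied widely between replicates. In shAMB it was 13.4, 9.93 and 14.95 CPM with DMSO and 17.2, 24.4 and 26.4 CPM with doxycycline, a rise of 1.77-fold (log2 0.83 ± 0.32 SE, adjusted p = 0.0313, edgeR) with no overlap. In sh4 it was 32.2, 24.1 and 17.1 CPM with DMSO and 12.6, 14.8 and 29.8 CPM with doxycycline, and the groups overlapped (log2 -0.36, adjusted p = 0.371, edgeR). In the tumors it ranged from 9.88 to 22.5 CPM in controls and from 7.79 to 24.6 CPM in those labelled KO, overlapping fully (log2 -0.18, adjusted p = 0.69, edgeR).

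The spread of HYAL2 was set beside a property of whole libraries. For each library the difference between genes of high GC content and genes of low GC content was computed (1441 genes of each kind in culture), in log2 units around the mean. HYAL2, with a GC content of 62.8%, had its libraries in the same order as this difference in 6 of 8 groups, as did HS6ST1 (62.6% GC) and NDST1 (56.6% GC) in 5 of 8 each. HS3ST2 (59.0% GC) did in 0 of 8 and HS3ST4 (58.9% GC) in 1 of 8, although their GC content was above that of NDST1. Only the same order was counted, so a gene that ran in reverse scored 0. HS2ST1 (37.8% GC) had 0 of 8, but in sh4 with doxycycline it ran in reverse, at 193, 181 and 154 CPM. The GC differences of these libraries were -0.59, -0.38 and 0.66. HS2ST1 also ran in reverse in EV and shAMB with doxycycline, but not in shAMB with DMSO. How often each member ran in reverse was not counted. HYAL2 and HS6ST1, at GC percentiles of 93.7 and 93.1, were themselves among the high-GC genes that define the difference in culture. HAS2 and HS2ST1, at percentiles of 6.31 and 8.39, were likewise among its low-GC genes. The share of other genes of like GC content that keep this order was not computed, and the source of the spread was not tested. The GC difference ran from -0.87 to -0.45 in shAMB with DMSO and from 0.29 to 0.87 in shAMB with doxycycline, which did not overlap. In sh4 it ran from -0.07 to 0.74 with DMSO and from -0.59 to 0.66 with doxycycline.

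**Figure D3:**
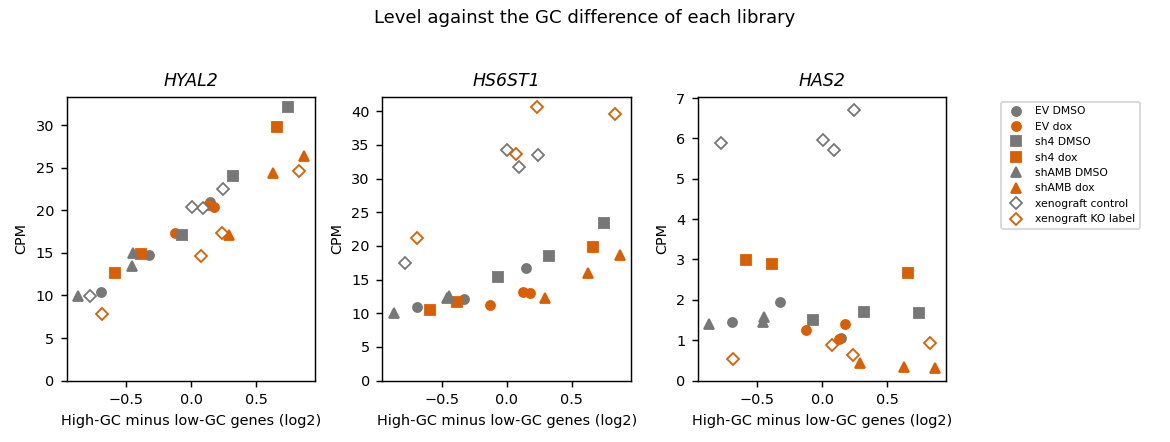
CPM of HYAL2, HS6ST1 and HAS2 (vertical axes, from 0) in each library against that library's log2 difference between high-GC and low-GC genes (horizontal axes); circles are EV, squares sh4, triangles shAMB and open diamonds xenografts, grey for DMSO or control food and orange for doxycycline. In culture HYAL2 was lowest at 9.93 CPM (GC difference -0.87) and highest at 32.2 CPM (0.74), with 26.4 CPM at the highest GC difference (0.87). HAS2 in sh4 with doxycycline was 2.98, 2.88 and 2.68 CPM at -0.59, -0.38 and 0.66. HYAL2 and HS6ST1 are among the high-GC genes that define the axis in culture, and HAS2 among the low-GC ones.

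With trends of GC content and gene length removed from each library, a setting chosen after the data were seen, the shAMB value of HYAL2 became -0.07 and those of NDST1 and HS6ST1 became -0.49 and -0.57, where they had been 0.83, 0.27 and 0.42. Under the same setting HYAL2 passed as lower in the tumors (-0.44, adjusted p = 0.0192, edgeR). The rise of HYAL2 also missed the threshold without shAMB DMSO replicate 1 (log2 0.86, adjusted p = 0.059, edgeR), DMSO replicate 2 (0.67, adjusted p = 0.12), doxycycline replicate 2 (0.77, adjusted p = 0.0782) or doxycycline replicate 3 (0.70, adjusted p = 0.102). In sh4, on the other hand, HYAL2 and HS6ST1 passed without doxycycline replicate 3, at -0.83 (adjusted p = 0.0197, edgeR) and -0.79 (adjusted p = 0.00418). That library had a GC difference of 0.66, the highest of its group. The direction of these 3 genes in shAMB therefore turned with the GC setting, while HAS3 (0.78), HS6ST2 (0.50) and HS2ST1 (-0.46) in shAMB kept theirs and their calls under it.

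NDST1, which starts the sulfation of heparan sulfate, was abundant and did not pass in any within-line comparison of the main test, with calls in both directions under other settings. It was 90.7, 77.1 and 88.0 CPM with DMSO and 92.6, 100.3 and 116 CPM with doxycycline in shAMB, where the groups did not overlap and the adjusted p of 0.0608 (edgeR) missed the threshold. It passed as higher without shAMB doxycycline replicate 1 (log2 0.34, adjusted p = 0.0366, edgeR), with upper quartile factors (0.32, adjusted p = 0.0355) and on the TPM scale (0.45, adjusted p = 0.00565, limma), and as lower with GC and length trends removed (-0.49, adjusted p = 6.17e-12, edgeR). In sh4, where the log2 fold change was 0.15 (adjusted p = 0.339, edgeR), it passed on the TPM scale (0.32, adjusted p = 0.0488, limma) and with the trends removed (0.13, adjusted p = 0.000141). In the tumors it was 71.8, 119, 90.9 and 103 CPM in controls and 93.9, 77.1, 78.9 and 58.2 CPM in those labelled KO (log2 -0.32, adjusted p = 0.153, edgeR), and it passed without control replicate 1 (-0.48, adjusted p = 0.0295) and with GC and length trends removed (-0.67, adjusted p = 2.25e-05).

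HS2ST1, the only 2-O-sulfotransferase of heparan sulfate, moved in opposite directions with the hairpins. In shAMB it was 166, 178 and 168 CPM with DMSO and 121, 117 and 115 CPM with doxycycline, a clear separation. The level was 1.45-fold lower (log2 -0.53 ± 0.08 SE, adjusted p = 1.5e-05, edgeR). In the tumors it was 158, 143, 133 and 145 CPM in controls and 94.5, 109, 109 and 110 CPM in those labelled KO, again without overlap and 1.37-fold lower (log2 -0.46 ± 0.09 SE, adjusted p = 0.00177).

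In sh4, HS2ST1 was 138, 148 and 160 CPM with DMSO and 193, 181 and 154 CPM with doxycycline. These groups overlapped, and the log2 rise of 0.24 ± 0.08 SE (adjusted p = 0.0158, edgeR) missed the threshold without sh4 DMSO replicate 1 (0.18, adjusted p = 0.129), doxycycline replicate 1 (0.17, adjusted p = 0.0951) or doxycycline replicate 2 (0.22, adjusted p = 0.0576), and in a fit of the sh4 libraries alone (adjusted p = 0.115). With GC and length trends removed it was 0.09 (adjusted p = 0.00493). Against EV the sh4 effect was higher by 0.35 ± 0.11 (adjusted p = 0.0197, edgeR), a call lost without EV DMSO replicate 1 (0.29, adjusted p = 0.0601), sh4 DMSO replicate 1 (0.28, adjusted p = 0.0841) or sh4 doxycycline replicate 1 (0.28, adjusted p = 0.0579) and with the compared groups alone (0.35, adjusted p = 0.0507). The shAMB effect was lower than that of EV by 0.43 ± 0.11 (log2 -0.43, adjusted p = 0.00365), and the hairpins differed by 0.78 ± 0.11 (adjusted p = 1.6e-05, edgeR).

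The ratio of the deposited counts to the deposited TPM (transcript abundance, which the authors scaled for transcript length) holds the mean transcript length that RSEM assigned to a gene in a library. For HS2ST1 this implied length was 5856, 5925 and 5820 bases in shAMB with DMSO and 4977, 4929 and 4980 bases with doxycycline. In the tumors it was 6551, 6523, 6478 and 6304 bases in controls and 5796, 5914, 6066 and 5861 bases in those labelled KO. In both, every library of the second group was shorter than every library of the first.

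In sh4 the implied length of HS2ST1 went the other way, from a mean of 5847 ± 42.8 bases to 6093 ± 40.0 bases (SD, n = 3), and in EV it stayed at 5976 ± 48.5 and 5974 ± 7.84 bases. Exact two-sided permutation tests gave p = 0.1 in sh4 and shAMB (n = 3 per group) and p = 0.0286 in the tumors (n = 4 per group), the smallest these sizes allow, and p = 0.271 each after adjustment over the 19 tests made of implied lengths. On the TPM scale, with a pseudocount of 0.1 and limma, the fall of HS2ST1 was -0.11 in shAMB (adjusted p = 0.233) and -0.28 in the tumors (adjusted p = 0.688), so that the falls in counts did not pass as falls in TPM. That scale also moved other genes. The median of all tested genes in shAMB was 0.26 on it, next to 0.096 in the main fit. In the tumors 2128 genes were changed on it, next to 6555. Whether the falls reflect length alone was not tested. The stretch that HS2ST1 shares with another gene on its strand may take part in these lengths, which was not tested.

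**Figure D4:**
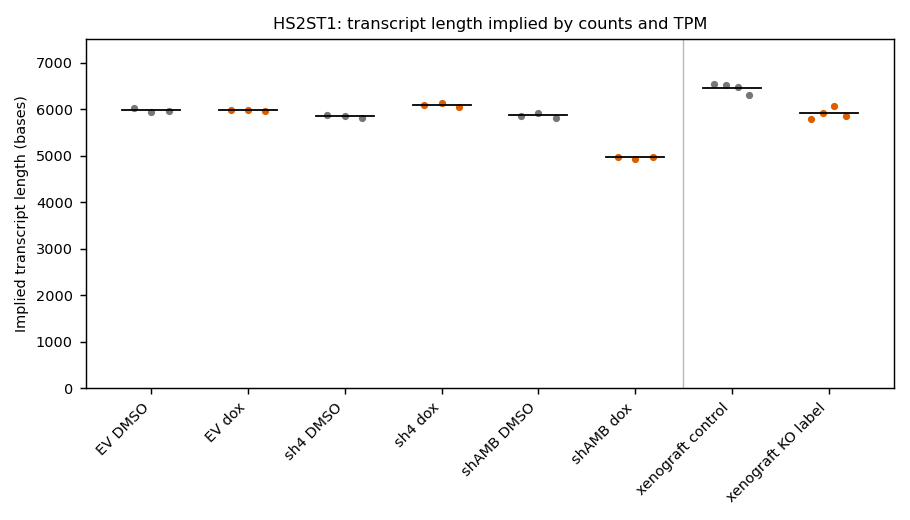
Transcript length of HS2ST1 in bases implied by deposited counts and TPM (vertical axis, from 0) in each library (points) of the 8 groups (horizontal axis), with the group mean as a bar; grey marks DMSO or control food and orange doxycycline. Libraries of shAMB with doxycycline lay near 4962 bases, below those of every other group.

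The 6-O-sulfotransferases differed. HS6ST2 rose in each hairpin line and in the tumors, whereas HS6ST1 passed in none of them in the main test. HS6ST2 was 37.9, 39.7 and 41.5 CPM with DMSO and 56.9, 55.0 and 47.4 CPM with doxycycline in sh4 (log2 0.42 ± 0.07 SE, adjusted p = 0.000122, edgeR), and 41.7, 43.4 and 43.5 CPM against 61.4, 60.6 and 57.1 CPM in shAMB (log2 0.48 ± 0.07 SE, adjusted p = 1.6e-05). In the tumors it was 39.7, 44.1, 37.1 and 40.8 CPM in controls and 58.7, 69.0, 74.4 and 78.0 CPM in those labelled KO (log2 0.79 ± 0.10 SE, adjusted p = 0.000194).

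In none of these 3 comparisons did the groups of HS6ST2 overlap, and the EV line held 38.1 to 43.7 CPM with DMSO and 38.4 to 41.3 CPM with doxycycline. The rise exceeded the EV effect by 0.47 ± 0.10 in sh4 (adjusted p = 0.00163, edgeR) and by 0.53 ± 0.10 in shAMB (adjusted p = 0.00035). The hairpins differed from each other by -0.06 (interval -0.26 to 0.15, adjusted p = 0.621, edgeR). On the TPM scale the tumor rise was 0.81 and missed the threshold (adjusted p = 0.0847, limma).

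HS6ST1 was 23.4, 18.5 and 15.4 CPM with DMSO and 10.4, 11.7 and 19.8 CPM with doxycycline in sh4 (log2 -0.45, adjusted p = 0.127, edgeR), and 12.3, 10.03 and 12.6 CPM against 12.2, 16.0 and 18.6 CPM in shAMB (log2 0.42, adjusted p = 0.119). Its groups overlapped in both lines. With GC and length trends removed it passed as lower in sh4 (-0.30, adjusted p = 7.45e-05, edgeR) and in shAMB (-0.57, adjusted p = 3.20e-08), whereas on the TPM scale it passed as higher in shAMB (0.58, adjusted p = 0.034, limma). The difference between the hairpins of -0.88 ± 0.33 passed (adjusted p = 0.0295, edgeR), as did that of HYAL2 at -1.19 ± 0.44 (adjusted p = 0.0303). Both calls were lost without sh4 DMSO replicate 1 (-0.69 and -0.93), sh4 doxycycline replicate 1 (-0.70 and -0.96) or 2 (-0.76 and -1.03), shAMB DMSO replicate 2 (-0.78 and -1.04), and shAMB doxycycline replicate 2 (-0.86 and -1.13) or 3 (-0.73 and -1.07), and with GC and length trends removed the values were 0.26, a call of the opposite sign (adjusted p = 0.00451, edgeR), and -0.05 (adjusted p = 0.795). Over all genes tested, 60.9% differed between the hairpins (27.8% higher in sh4 and 33.1% lower), and among the members open to a test 5 of 8 did, 2 higher and 3 lower.

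HS3ST2, a 3-O-sulfotransferase, showed the largest rise of the 10 genes in the tumors. It was 18.4, 17.1, 17.7 and 16.5 CPM in controls and 39.5, 59.6, 59.9 and 46.6 CPM in those labelled KO, with a wide gap between the groups. The log2 fold change of 1.56 ± 0.14 SE (adjusted p = 2.2e-05, edgeR) stayed between 1.47 and 1.66 when 1 tumor was left out at a time. It placed HS3ST2 at the top of the order per kilobase in that group, as given above.

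In culture HS3ST2 had narrow replicates and moved in opposite directions. In sh4 it was 13.3, 13.7 and 13.7 CPM with DMSO and 19.4, 19.5 and 19.3 CPM with doxycycline (log2 0.52 ± 0.06 SE, adjusted p = 2.6e-06, edgeR). In shAMB it was 16.3, 15.2 and 15.7 CPM with DMSO and 13.0, 13.5 and 12.6 CPM with doxycycline (log2 -0.27 ± 0.06 SE, adjusted p = 0.000633). Neither pair overlapped, and the effects differed from each other by 0.79 ± 0.08 (adjusted p = 8.1e-07).

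Against EV, the sh4 effect on HS3ST2 was larger by 0.60 ± 0.08 (adjusted p = 4.6e-05, edgeR), while the shAMB effect differed by -0.19 ± 0.08 and did not pass (adjusted p = 0.0736). That difference passed with RLE factors (-0.24, adjusted p = 0.0301, edgeR), with the compared groups alone (-0.25, adjusted p = 0.0395) and with GC and length trends removed (-0.62, adjusted p = 0.0204), and was 0.035 on the TPM scale. The fall in shAMB was -0.09 on the TPM scale (adjusted p = 0.127, limma) and -0.91 with GC and length trends removed (adjusted p = 3.08e-05, edgeR). The rise in the tumors and the fall in shAMB thus had opposite signs although both compare doxycycline with none. Which of the named hairpins the tumor cells carried is not settled by the labels.

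The lines also differed in HS3ST2 before doxycycline. DMSO cells of EV held 11.04, 10.7 and 11.6 CPM, and those of sh4 and shAMB all lay above. It was the only one of 10 members that was changed between EV and the hairpin lines with DMSO, where 1.12% (sh4) and 1.52% (shAMB) of all tested genes were changed. The difference was 0.50 ± 0.06 on the log2 scale in shAMB (adjusted p = 0.000155, edgeR) and 0.29 ± 0.06 in sh4 (adjusted p = 0.0218). The sh4 call was lost without EV DMSO replicate 1 (0.28, adjusted p = 0.115) or 2 (0.26, adjusted p = 0.127), and without sh4 DMSO replicate 1 (0.29, adjusted p = 0.106), 2 (0.28, adjusted p = 0.113) or 3 (0.28, adjusted p = 0.0624), and with GC and length trends removed the value was -0.07. RUNX1T1 was lower in sh4 than in EV with DMSO as well (log2 -0.29, adjusted p = 0.0144, edgeR).

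HS3ST4, a second 3-O-sulfotransferase, fell in both hairpin lines and is described without a test. In sh4 it was 1.96, 1.85 and 2.08 CPM with DMSO and 0.496, 0.370 and 0.663 CPM with doxycycline, and in shAMB 2.17, 1.77 and 1.90 CPM against 0.515, 0.455 and 0.531 CPM. The groups were far apart in both lines, and the level was 3.88-fold lower in sh4 and 3.89-fold lower in shAMB (log2 -1.96 in each, with intervals of -2.41 to -1.50 and -2.41 to -1.51). In EV it was 1.60, 1.67 and 2.13 CPM with DMSO and 2.23, 1.38 and 1.57 CPM with doxycycline, which overlapped.

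In the tumors HS3ST4 was 0.747, 1.02, 0.752 and 1.39 CPM in controls and 0.209, 0.352, 0.514 and 0.404 CPM in those labelled KO (log2 -1.39, interval -2.13 to -0.66). The groups did not overlap, and 12 reads stood behind the lowest value of this gene. Removing GC and length trends gave -1.87 in sh4, -2.63 in shAMB and -1.57 in the tumors. The 3-O-sulfotransferases thus went apart: where HS3ST4 was lower in the tumors labelled KO, HS3ST2 was higher.

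HS3ST5, the third of the kind, fell in sh4 alone among the comparisons with doxycycline that were run. It was 5.59, 5.21 and 6.56 CPM with DMSO and 4.32, 3.46 and 3.29 CPM with doxycycline in sh4, a separation of 1.57-fold (log2 -0.65 ± 0.14 SE, adjusted p = 0.00134, edgeR). In shAMB it was 5.62, 5.28 and 4.65 CPM with DMSO and 6.23, 5.39 and 5.42 CPM with doxycycline (log2 0.13, interval -0.16 to 0.42, adjusted p = 0.411), and the hairpins differed by -0.78 ± 0.19 (adjusted p = 0.00286).

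With DMSO, all sh4 libraries of HS3ST5 lay above all EV libraries, a difference that did not pass (log2 0.40, adjusted p = 0.154, edgeR). Against EV, where HS3ST5 held 3.75 to 4.94 CPM over both treatments, the sh4 effect was -0.61 ± 0.20 (adjusted p = 0.027, edgeR). That call was lost without EV DMSO replicate 1 (-0.60, adjusted p = 0.0552) or 3 (-0.53, adjusted p = 0.055), EV doxycycline replicate 3 (-0.50, adjusted p = 0.073), sh4 DMSO replicate 3 (-0.51, adjusted p = 0.0607) or sh4 doxycycline replicate 2 (-0.56, adjusted p = 0.0671), with the compared groups alone (-0.60, adjusted p = 0.055), and on the TPM scale (-0.38, adjusted p = 0.135, limma). In the tumors the gene was 2.35, 2.69, 1.63 and 2.22 CPM in controls and 1.29, 2.55, 2.16 and 2.79 CPM in those labelled KO, with overlap and a log2 fold change of -0.01 (interval -0.59 to 0.56, adjusted p = 0.971, edgeR).

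Across the 18 culture libraries, the genes whose log2 CPM ran most like that of HAS2 among 12709 genes were VASH2 (Pearson r = 0.974), TLE4 (0.973) and DOCK1 (0.972). For HS3ST4 they were ABAT (0.973), PTPRG-AS1 (0.967) and DGKK (0.967). These libraries share lines and treatments, and the correlations are descriptions. VASH2, which encodes a tubulin carboxypeptidase, had log2 fold changes of 0.70 in sh4, -1.57 in shAMB and -1.39 in the tumors, next to 0.80, -2.03 and -3.02 for HAS2. For TLE4 the values were 0.12, -0.29 and 0.12, with the opposite sign to HAS2 in the tumors, and for DOCK1 they were 0.29, -0.53 and -0.81.

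The rest of the pathway was read from 9 lists that hold 80 further genes, of which 62 were tested in culture and 65 in the tumors. In EV, 0 of 62 were changed. In sh4, 26 were higher and 11 lower (59.7% changed against 40.9% of all tested genes, median log2 0.18 against 0.00), in shAMB 20 were higher and 24 lower (71.0% against 66%, median -0.03 against 0.10), and in the tumors 13 were higher and 19 lower (49.2% against 41.1%, median -0.19 against 0.02).

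Both precursor genes tested, UGDH and UGP2, rose in sh4 and fell in shAMB. UGDH, which makes the UDP-glucuronate that both chains need, fell in shAMB (log2 -0.49 ± 0.07 SE) and in the tumors (-0.59 ± 0.11), and UGP2, which makes its precursor, rose in sh4 (0.40 ± 0.07). Of 8 hyaluronan-binding genes tested in culture, 5 rose and 1 fell in sh4 (22.9% and 18% of all tested genes did), and 1 rose and 4 fell in shAMB (37.6% and 28.4%). In the tumors 3 of 10 rose and 4 fell (21.2% and 19.9%), with NCAN, a neural proteoglycan, at -0.97 ± 0.18. The receptor CD44 rose in the tumors from 8.46 ± 2.57 to 18.7 ± 5.52 CPM (SD, n = 4, log2 1.15 ± 0.26 SE, adjusted p = 0.005, edgeR). HMMR, a hyaluronan-binding mitotic protein, fell in sh4 from 63.6 ± 5.504 to 38.2 ± 5.29 CPM (log2 -0.74). TMEM2, a cell surface hyaluronidase, rose in sh4 (0.66 ± 0.10) and in the tumors (0.73 ± 0.16), and HYAL3 fell in sh4 (-1.11 ± 0.21).

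Among the enzymes that build and modify heparan sulfate, HS6ST3, the third 6-O-sulfotransferase, rose in shAMB from 3.53 ± 0.45 to 9.34 ± 0.43 CPM (SD, n = 3, log2 1.40 ± 0.11 SE, adjusted p = 3.2e-08, edgeR) and in the tumors from 3.61 ± 0.96 to 8.93 ± 2.35 CPM (log2 1.31 ± 0.24, adjusted p = 0.0015). NDST3 fell in shAMB from a low level of 1.32 CPM to 0.407 CPM (-1.73 ± 0.29). The epimerase GLCE rose in sh4 (0.64 ± 0.07) and fell in the tumors (-0.37 ± 0.08), and SULF2, which removes 6-O-sulfates outside the cell, fell in sh4 (-0.24 ± 0.07). Of 5 chain polymerisation genes, 2 rose in sh4 (22.9% of all tested genes did), 1 rose and 3 fell in shAMB (37.6% and 28.4%) and 3 fell in the tumors (19.9%), among them EXT2 (-0.49 ± 0.09).

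Of 7 genes that supply the sulfate donor, SLC35B2, which carries it into the Golgi, fell in shAMB (-0.84 ± 0.16) and in the tumors (-1.36 ± 0.23), and PAPSS2, which makes it, rose in sh4 (0.55 ± 0.09) and in the tumors (0.64 ± 0.18). Among 12 core protein genes, the glypican GPC2 rose in shAMB (2.04 ± 0.22) and in the tumors (1.13 ± 0.22), GPC3 rose in sh4 (1.28 ± 0.06), and the syndecans SDC2 in shAMB (-0.73 ± 0.07) and SDC4 in the tumors (-0.73 ± 0.13) fell. In lysosomal breakdown, HGSNAT fell in shAMB (-1.35 ± 0.08) and in the tumors (-1.16 ± 0.18), and the heparanase HPSE rose in the tumors (0.76 ± 0.14). All changes in these paragraphs had adjusted p-values under 0.05 in edgeR. They are values of the main fit, and how these further genes stand under the other settings was not examined. In shAMB this includes the GC setting, where the GC difference of the libraries did not overlap between DMSO and doxycycline.

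Human genes that mark immune or vessel cells had low values. The tumors grew in mice and the processing notes name the human build hg38. These sums therefore cannot tell how many host cells a tumor held. Summed over 6 genes each, endothelial markers came to 1.13 to 1.74 CPM in control tumors and 1.22 to 1.92 CPM in those labelled KO, and macrophage markers to 1.15 to 1.63 and 1.78 to 2.70 CPM. The sum of 7 fibroblast genes was 57.8 to 94.8 CPM in control tumors and 85.7 to 129 CPM in those labelled KO, next to 75.1 to 140 CPM in cultured KELLY cells, which hold no such cells. The part of such cells in CD44 or any other tumor value was not tested. How mouse reads in the tumors were handled is not given in the sources used here.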

How the data were processed

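RNA sequencing of 18 KELLY culture libraries and 8 xenograft libraries was analysed, with groups taken from the sample labels. Per the labels, the libraries were made with a stranded total RNA kit, although polyA RNA is named as the molecule. The submitters' processing notes name STAR, SAMtools, RSEM and hg38. The authors deposited expected counts (estimated counts per gene, not normalized) and TPM (scaled by the authors for transcript length and library) for 26485 genes, in a culture table and a xenograft table.

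The counts, rounded to integers, were fitted with edgeR 4.0.16 (R 4.3.3) after filterByExpr removed low genes and TMM scaled the libraries (factors of 0.974 to 1.07 in culture and 0.936 to 1.09 in xenografts). The quasi-likelihood F test (glmQLFit, glmQLFTest, two-sided) was used, p-values were adjusted by Benjamini-Hochberg across the tested genes of each comparison, and changed means an adjusted p under 0.05. All culture libraries were fitted together with 1 coefficient per group, and the xenografts separately. The median biological coefficient of variation was 0.115 and 0.186. In simulated counts, 98% of 2-fold and 100% of 4-fold changes were recovered in the sh4 comparison (14661 genes) and 89% and 100% in the xenograft comparison (15862 genes). The simulation gave all genes of a table the same spread and changed only genes above a floor on the mean count. It also changed fewer genes than were changed in the data. These shares are given per comparison, and whether they hold at the count and spread of each of the 10 members was not tested. HYAL2 in sh4, for example, had a standard error of 0.31 on the log2 scale (95% interval -1.03 to 0.30). Reads carry no molecular identifiers, so PCR copies cannot be told from separate molecules.

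The 10 genes and the pathway lists were chosen with earlier results of these data known. All 10 members are named. Of each list, the other gene with the largest rise and the one with the largest fall among changed genes (mean CPM of 1 or more) were eligible to be named in sh4, shAMB and the xenografts, and some of these are not reported here. Likeness was Pearson's r of log2 CPM (prior count 2). Implied lengths were counts over TPM, scaled by genes with 1 annotated transcript, and compared by exact permutation tests. Alternatives were RLE and upper quartile scaling, DESeq2 1.42.0, no filter on low counts, limma 3.58.1 on log2 TPM (pseudocounts 0.1 and 1), a fit of the compared groups alone, the replicate number as a block, each library left out in turn and, chosen after the data were seen, loess trends of GC content and gene length removed (span 0.3).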

Additional observations from a re-analysis of the deposited data

Results flagged for a closer look

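In the groups of 4 tumors, 3 members had a library whose gap to the next exceeded Dixon's limit. HAS3 was 5.15 CPM in 1 tumor labelled KO, HS2ST1 was 94.5 CPM in another labelled KO, and HS6ST1 was 17.5 CPM in 1 control tumor. With 20 groups examined, chance flags about 1 in 20.

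The effect of doxycycline differed between lines for several members, each by a test of the difference itself (edgeR, adjusted p under 0.05). Compared with EV, sh4 differed by 1.08 on the log2 scale for HAS2, 0.61 for HAS3, 0.35 for HS2ST1, 0.47 for HS6ST2, 0.60 for HS3ST2 and -0.61 for HS3ST5. Compared with the same EV libraries, shAMB differed by 0.85 for HAS3, -0.43 for HS2ST1 and 0.53 for HS6ST2. Between the hairpins, sh4 minus shAMB was -1.19 for HYAL2, 0.78 for HS2ST1, -0.88 for HS6ST1, 0.79 for HS3ST2 and -0.78 for HS3ST5.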

How the results depend on the processing

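Of the 800 fold changes of members recomputed under another setting, 714 kept their direction and their side of the threshold, or for values without a test moved by less than their error, as did 678 of 740 with 1 library left out. HAS3 and HS6ST2 in both hairpin lines, HAS2 in sh4 and HS3ST2 in sh4 and in the tumors kept their call in every setting run. With GC and length trends removed, the count of changed members was 1 in EV (HS6ST1, log2 -0.30), 6 for shAMB minus EV, 0 for sh4 against EV with DMSO and 5 in the tumors. For sh4 against EV with DMSO it was also 0 without a filter on low counts and with the compared groups alone. On the TPM scale 1 member was changed in the tumors, with either pseudocount. With libraries left out, counts ran from 5 to 8 in sh4, 4 to 6 in shAMB, 4 to 8 for sh4 minus EV and 3 to 4 in the tumors. They ran from 3 to 5 for sh4 minus shAMB and from 0 to 1 for sh4 against EV with DMSO. The cause of these shifts was not tested.

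Signs that turned with GC and length trends removed were those of HYAL2 (-0.074), NDST1 (-0.49) and HS6ST1 (-0.57) in shAMB, HS6ST1 in sh4 minus EV (0.0019), HYAL2 (-0.20), NDST1 (-0.50) and HS6ST1 (-0.26) in shAMB minus EV, HAS3 (0.023), NDST1 (0.62) and HS6ST1 (0.26) in sh4 minus shAMB, HAS3 (-0.10), HS2ST1 (0.0067), HS3ST2 (-0.073) and HS3ST4 (-0.19) in sh4 against EV with DMSO, NDST1 (0.0083) and HS6ST1 (0.027) in shAMB against EV with DMSO, and HS6ST1 in the tumors (-0.094). On the TPM scale, where the median of all genes lay at 0.16 in sh4 and 0.26 in shAMB, turned values were HS2ST1 (0.032 with either pseudocount) and HS3ST2 (0.035 and 0.030) in shAMB minus EV, HAS3 in sh4 against EV with DMSO (-0.015 and -0.010), HAS2 in shAMB against EV with DMSO (0.016 with 0.1) and HS3ST5 in the tumors (0.0060 and 0.016). With a pseudocount of 1, which shrinks low genes, the falls were -0.62 in shAMB and -0.78 in the tumors for HAS2, and -0.72 in sh4, -0.72 in shAMB and -0.12 in the tumors for HS3ST4. Upper quartile scaling, which put the median of all tumor genes at 0.12, gave HS3ST5 0.081 there. HS6ST2 in sh4 minus shAMB was 0.012 with RLE factors and 0.013 with DESeq2, and NDST1 in sh4 minus EV was -0.0037 without a filter.

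Leaving out 1 library at a time turned no changed value. Among the others, the range crossed 0 in EV for HS6ST1 (-0.21 to 0.12), HS3ST4 (-0.28 to 0.085) and HS3ST5 (-0.15 to 0.051), in sh4 minus EV for NDST1 (-0.12 to 0.12), and in sh4 minus shAMB for NDST1 (-0.23 to 0.0039), HS6ST2 (-0.11 to 0.051) and HS3ST4 (-0.19 to 0.21). It also did with DMSO for HAS2 (-0.058 to 0.36) and HAS3 (-0.00089 to 0.066) in sh4 against EV and for HAS2 (-0.20 to 0.22), HYAL2 (-0.48 to 0.025), HS6ST1 (-0.31 to 0.016) and HS6ST2 (-0.0048 to 0.091) in shAMB against EV, and in the tumors for HYAL2 (-0.47 to 0.042), HS6ST1 (-0.015 to 0.37) and HS3ST5 (-0.15 to 0.17).

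Replicate numbers did not pair the libraries: same-numbered deviations correlated at -0.10, -0.03 and -0.23 in EV, -0.54, -0.08 and -0.60 in sh4 and -0.10, 0.0009 and 0.13 in shAMB, and not every tumor correlated best with its own number. With the replicate block 3 members were changed in sh4 minus shAMB, the sh4 rise of HS2ST1 (0.24, adjusted p = 0.0865, edgeR) and the shAMB rise of HYAL2 (0.82, adjusted p = 0.0878) missed the threshold, as did HS2ST1 (0.34, adjusted p = 0.106) and HS3ST5 (-0.61, adjusted p = 0.0844) in sh4 minus EV and HYAL2 (-1.25, adjusted p = 0.0789) and HS6ST1 (-0.90, adjusted p = 0.0782) in sh4 minus shAMB, and HAS2 in shAMB against EV with DMSO was 0.0019. Over all genes, sh4 minus EV gave 2713 changed genes with the block and 7557 without sh4 doxycycline replicate 3, next to 4856.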
